A study of Mus musculus with 12 samples.

Results

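A set of 10 genes that mark hematopoietic stem cells and the multipotent progenitors derived from them was followed across single-cell transcriptomes of mouse bone marrow: Hlf, Mecom, Procr, Egfl7, Msi2, Cd34, Gcnt2, Adgrl4, Ctla2a and Mllt3. They were chosen by name, as 10 of the 27998 genes in the tables. Their UMIs (unique molecular identifiers, each marking 1 captured RNA molecule) were summed per library over all cells and within cell groups gated on other genes. Levels are UMIs of a gene per 10 to the power of 6 UMIs (CPM) of the same library and cell group, and genes were not ranked against each other by level. The study asked how an activated NRas and the loss of Ezh2, a histone H3 lysine 27 methyltransferase, change marrow cells while leukemia develops. Cells enriched for the receptor c-Kit were taken at 3 times after pIpC, named T1 (2 weeks later), T2 (2 months later) and T3 (4 months later). This double-stranded RNA switches on Mx1-Cre through its interferon-responsive promoter. All mice received 5 injections of pIpC, and the labels give their age as 8 to 12 weeks. Mice sampled at T3, 4 months after pIpC, must have been older, so this is not the age at every sampling. WT mice were negative for Mx1-Cre, E2-KO mice were Mx1-Cre+;Ezh2 f/f, G12D mice were Mx1-Cre+;NRas G12D+/−, and G12D/E2-KO mice were Mx1-Cre+;NRas G12D+/−;Ezh2 f/f. The recombinase therefore differs between WT and every mutant, and Mx1-Cre acts in many cell types, not in stem cells alone. Each of the 4 genotypes had 1 library per time point, 12 in all, so the 3 time points served as the replicates of a genotype (n = 3 throughout).

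Hematopoietic stem cells renew themselves and give rise to multipotent progenitors, and these then commit to the granulocytic, monocytic, erythroid, megakaryocytic and lymphoid lineages. Genes that define the stem state are usually switched off during commitment, and Polycomb repressive complexes, with Ezh2 as a catalytic subunit, help keep genes silent in cells that have left the state in which they are used. Several genes of this set are also used by endothelial cells (Egfl7, Procr, Adgrl4, Cd34) or by erythroid and megakaryocytic cells (Mllt3, Mecom).

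The libraries held 2350 to 3767 cells and 12.6 to 23.6 M UMIs (M, 10 to the power of 6), with a median of 3780.5 to 6975.5 UMIs per cell. Of the 5648 cells in the G12D T1 table, 2896 (51.3%) recurred in the table of G12D/E2-KO at T1, being 95.1% of its cells, and 1494 of them were equal in every gene. They were kept in G12D/E2-KO T1 only, and results were recomputed with no cell removed. Ezh2 stood at 113 ± 17.1 CPM (SD) for WT, 30.1 ± 3.9 for E2-KO, 90.3 ± 11.1 for G12D and 22.8 ± 2.31 for G12D/E2-KO, so the libraries labelled E2-KO and G12D/E2-KO carried the loss. The level of Nras does not check the G12D allele, which is a point mutation. The WT, E2-KO and G12D libraries at T3 held 1296 to 1357 CPM of Xist, and the other 9 libraries held at most 0.608 CPM. The mice behind those 3 libraries therefore differed in sex from the rest, and at T3 sex and the G12D/E2-KO genotype cannot be told apart. Endothelial markers (Cdh5, Kdr, Pecam1, Emcn, Plvap and Vwf) summed to 22.4 to 34.5 CPM per library, mostly from Pecam1, and Cdh5 was at most 0.475 CPM.

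The label was checked against markers that are not in the set. Cells were gated in a fixed order on lineage markers, and cells passing no lineage gate with at least 5 UMIs of Hoxa9, Meis1, Angpt1, Ifitm1 and Cd27 per 10000 UMIs formed the stem marker-positive group of 111 to 309 cells per library. The 10 genes together reached 1152 ± 139 CPM (SD over 12 libraries) in this group and 607 ± 98.2 in the remaining lineage-low cells. In the committed groups the sum was lower, with 241 ± 46.3 in monocytic, 227 ± 19.3 in early erythroid, 142 ± 16.2 in primary granule-high, 137 ± 21.8 in haemoglobin-high and 40.0 ± 14.2 in late granule-high cells. With each cell thinned to 2000 UMIs, a WT stem marker-positive cell showed 2.02 ± 0.233 of the 10 genes on average, and a WT primary granule-high cell showed 0.262 ± 0.0424. Among these 7 cell groups the sum and 9 of the 10 genes taken singly were highest in stem marker-positive cells, and Mllt3 was highest in erythroid cells. In the smaller gates Ctla2a reached a like level, with 295 ± 193 CPM in megakaryocytic and 259 ± 59.1 in stem marker-positive cells over the 12 libraries. Msi2 lay between 69.0 and 105 CPM in the B lymphoid gate of 11 libraries, and its 474 CPM in the gate of G12D/E2-KO T3 came from 1 cell.

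**Figure D1:**
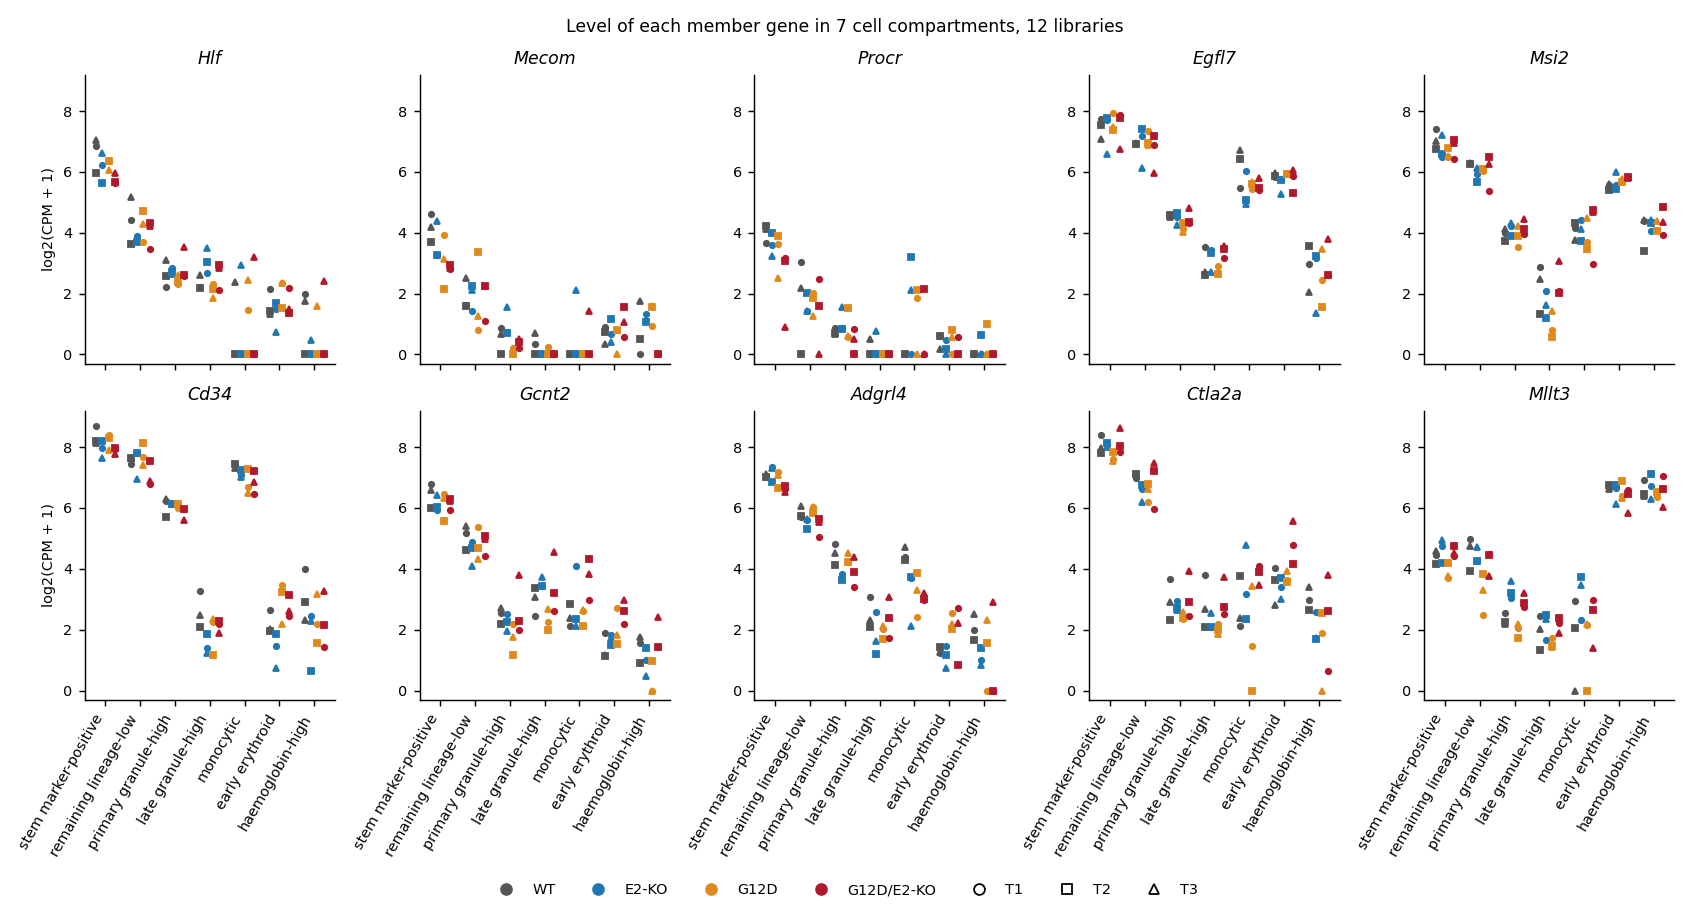
Mean level of each of the 10 genes over the 12 libraries in 7 cell groups, with the number in a cell giving CPM. Hlf, Mecom, Procr, Gcnt2, Adgrl4 and Ctla2a fall away outside the 2 lineage-low groups, Cd34 keeps 134 CPM in monocytic and 65 CPM in primary granule-high cells, and Mllt3 is highest in haemoglobin-high (96.7 CPM) and early erythroid (91.8 CPM) cells.

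The transcription factors Hlf (chr11:90336536-90390895, minus strand) and Mecom (chr3:29951296-30548008, minus), both needed for stem cell maintenance, were concentrated in the stem marker-positive group. In WT this group held 53.6 ± 4.05% of all Hlf UMIs and 60.3 ± 2.10% of all Mecom UMIs, although it made up 7.32 ± 0.581% of the cells. Coordinates are those of GENCODE M21 on mm10 (GRCm38) and cover the whole gene. Procr (chr2:155751117-155755471, plus), the endothelial protein C receptor and a surface marker of dormant stem cells, had 61.9 ± 18.2% of its WT UMIs there, from only 22 to 30 UMIs per WT library, and the lowest count of any library was 3. Mecom was thin as well, with 13 to 36 UMIs per library, so both genes were measured with a wide counting error.

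Cd34 (chr1:194938819-194961279, plus), a sialomucin of progenitors, and Adgrl4 (chr3:151437887-151545086, plus), an adhesion G protein-coupled receptor, reached further down the granulocytic path. Primary granule-high cells held 27.9 ± 4.75% of the Cd34 UMIs and 24.6 ± 3.13% of the Adgrl4 UMIs of WT. Egfl7 (chr2:26580014-26593120, plus), a secreted protein that also hosts a microRNA, and Msi2 (chr11:88339382-88718513, minus), an RNA-binding protein that sustains stem cell self-renewal, had their largest WT shares in early erythroid cells, 39.9 ± 9.73% and 41.9 ± 6.58%. Of the 7 groups, their CPM level was nevertheless highest in the stem marker-positive one, at 183 ± 49.2 CPM for Egfl7 and 113 ± 26.5 CPM for Msi2 over the 12 libraries. Egfl7 was also present in the B lymphoid gate of WT, at 114, 149 and 97.5 CPM at T1, T2 and T3.

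Gcnt2 (chr13:40859754-40960892, plus), a glycosyltransferase that makes branched I-antigen sugars, and Ctla2a (chr13:60934155-60936625, minus), an inhibitor of cathepsin-type cysteine proteases, both had over 40% of their WT UMIs in the stem marker-positive group, 45 ± 5.83% and 42.3 ± 4.81%. Ctla2a stood at 319, 276 and 259 CPM in the megakaryocytic gate of the 3 WT libraries as well, from 26 to 54 cells each. It has a close paralog, Ctla2b, and reads of the 2 genes may be split by the counting, so its values are less certain. Ctla2b held 2.53 to 6.19 CPM in 11 libraries and 15.6 CPM in G12D/E2-KO T3. Mllt3 (chr4:87769925-88033364, minus), a subunit of the super elongation complex that reads acylated histones, had 73.4 ± 5.23% of its WT UMIs in early erythroid cells and 2.46 ± 0.603% in stem marker-positive cells.

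Over the 84 combinations of 7 cell groups and 12 libraries, each of the other 9 genes followed the sum of the rest with a Pearson r of 0.564 (Cd34) to 0.904 (Msi2) on log2(CPM + 1), and Mllt3 gave −0.0429. These points share libraries and cells, so the values are descriptions. Among 4830 genes with a mean of at least 20 CPM, those closest to the summed pattern were Adgrg1 (r = 0.940), Ogt (0.930), Ipo11 (0.930), Paip2 (0.913) and Tcf4 (0.911). Adgrg1 is an adhesion receptor and Tcf4 a basic helix-loop-helix transcription factor.

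Because Ezh2-containing complexes are recruited to CG-rich promoters, the promoters of the set were read from RefSeq (GRCm38.p6), which held 19 windows of 300 bases for the 10 genes, from 250 bases before to 50 after a start. CG dinucleotides were counted in each. Msi2 had 37 to 39, Egfl7 5 to 31 over its 3 starts, Hlf 30, Mllt3 29 and 4, Mecom 19 and 9, Procr 13, Gcnt2 6 to 13, Adgrl4 8, Cd34 7, and Ctla2a 4 and 5. The median over all 32851 windows was 7. The upstream Mllt3 window and the Ctla2a window with the fewest CG are shown as a CG-rich and a CG-poor example, from the 2 genes that DESeq2 called over all cells below. Capitals mark CG, and both are written 5′ to 3′ on the gene's strand. Of all windows, 12.9% hold as many CG as Mllt3 or more and 68.6% as many as Ctla2a or more, and no methylation or histone mark was measured here.
Mllt3, chr4:88033358-88033657, minus strand: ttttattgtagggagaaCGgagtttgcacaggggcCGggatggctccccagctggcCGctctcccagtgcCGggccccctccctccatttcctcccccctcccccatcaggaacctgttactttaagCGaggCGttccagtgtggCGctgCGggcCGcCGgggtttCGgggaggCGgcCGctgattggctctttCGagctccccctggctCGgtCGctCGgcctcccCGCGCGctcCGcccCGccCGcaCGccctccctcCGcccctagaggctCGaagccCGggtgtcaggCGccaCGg
Ctla2a, chr13:60936576-60936875, minus strand: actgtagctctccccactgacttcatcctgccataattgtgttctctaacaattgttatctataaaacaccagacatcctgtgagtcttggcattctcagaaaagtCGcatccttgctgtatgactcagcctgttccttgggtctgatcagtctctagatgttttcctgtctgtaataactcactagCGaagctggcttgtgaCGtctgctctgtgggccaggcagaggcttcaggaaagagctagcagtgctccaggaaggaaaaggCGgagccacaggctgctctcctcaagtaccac

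The first comparison was the level of each gene over all cells of a library, from every cell type that makes it. Of the summed WT UMIs of the set, stem marker-positive cells held 27.7 ± 1.97% and early erythroid cells 29.5 ± 3.25%. The level over all cells is therefore not a measure of the stem program alone. Ctla2a had the largest difference of the set between G12D/E2-KO and G12D, and Mllt3 that between G12D/E2-KO and WT. Ctla2a stood at 39.7, 29.7 and 32.4 CPM for WT, 26.7, 27.1 and 28.6 for E2-KO, 24.7, 21.6 and 29.7 for G12D, and 30.7, 56.2 and 131 for the double mutant G12D/E2-KO in time order. The G12D/E2-KO libraries at T2 and T3 were above all others, and G12D/E2-KO T1 lay within the WT range. In edgeR's quasi-likelihood fit over all 12 libraries (Benjamini-Hochberg adjustment over all genes tested), the log2 difference of G12D/E2-KO was 0.87 from WT (SE 0.30, adjusted p = 0.106) and 1.27 from G12D (SE 0.30, adjusted p = 0.0822). Without the T1 library of G12D/E2-KO these were 1.27 (adjusted p = 0.0113) and 1.65 (adjusted p = 0.00304), and without its T3 library they were 0.42 (adjusted p = 0.222) and 0.81 (adjusted p = 0.105).

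The libraries with the most Ctla2a, G12D/E2-KO T2 and T3, also had the highest levels of platelet-lineage markers. Pf4, Ppbp, Itga2b and Gp1bb, all 4 of them detected, summed to 454 CPM in G12D/E2-KO T2 and 856 CPM in G12D/E2-KO T3, and to 112 to 370 CPM in the other 10 libraries. Inside the megakaryocytic gate Ctla2a was 872 CPM in G12D/E2-KO T3 (136 cells) and 162 to 395 CPM in the other 11 libraries. This gate held 5.2% of the cells of G12D/E2-KO T3 and 0.654 to 1.90% of those of the other 11. Most groups outside this gate held little Ctla2a, but the lineage-low groups held much of it. Stem marker-positive cells had 34.4 ± 14.4% of the Ctla2a UMIs of G12D/E2-KO and 42.3 ± 4.81% of those of WT. The remaining lineage-low cells had 30.8 ± 9.34% and 18.7 ± 0.563%. The part of megakaryocytic cells in the Ctla2a difference was not tested.

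Mllt3 over all cells stood at 48.2, 39.1 and 45.8 CPM for WT, 44.3, 54.5 and 41.5 for E2-KO, 19.4, 42.6 and 15.9 for G12D, and 26.4, 27.3 and 20.1 for G12D/E2-KO. The G12D/E2-KO values lay below all WT values, and G12D overlapped WT through its T2 library. The log2 difference from WT was −0.93 in G12D/E2-KO (SE 0.27, adjusted p = 0.0673) and −0.84 in G12D (SE 0.27, adjusted p = 0.318), neither past the threshold of 0.05. The difference of G12D/E2-KO passed without WT T2 (adjusted p = 0.0406) or G12D T2 (0.0169), and that of G12D without G12D T2 (0.0289). The share of cells in the 2 erythroid gates, where Mllt3 is highest, was 27.9 ± 1.42% for WT, 33.4 ± 3.10% for E2-KO, 16.5 ± 7.19% for G12D and 16.0 ± 0.921% for G12D/E2-KO. Within early erythroid cells the Mllt3 level was 102 CPM for WT, 92.1 for E2-KO, 93.3 for G12D and 79.5 for G12D/E2-KO on average.

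Hlf stood at 9.92, 6.51 and 14.1 CPM for WT, 7.32, 5.84 and 8.55 for E2-KO, 9.89, 6.66 and 9.97 for G12D, and 7.41, 9.86 and 13.9 for G12D/E2-KO. All groups overlapped. Gcnt2 stood at 10.8, 8.63 and 11.7 CPM for WT, 8.53, 6.72 and 8.39 for E2-KO, 12.7, 5.01 and 10.6 for G12D, and 9.83, 15.6 and 21.7 for G12D/E2-KO, with the last 2 values above all others. Of the remaining genes, Cd34 ran from 37.3 to 72.6 CPM, Egfl7 from 32.9 to 57.9, Msi2 from 23.7 to 47.5, Adgrl4 from 11.7 to 25.8, Mecom from 0.718 to 2.22 and Procr from 0.194 to 1.43, with the lowest Procr value in G12D/E2-KO T3 (3 UMIs).

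None of the 10 genes passed in any all-cell comparison by edgeR. The share of all 12848 genes called was 1.59% for E2-KO against WT, 0.109% for G12D against WT, 5.69% for G12D/E2-KO against WT, 1.36% for G12D/E2-KO against G12D and 0.0934% for the interaction, defined as what G12D/E2-KO adds beyond both single changes together. In these comparisons 1, 2, 3, 2 and 2 of the 10 genes had an unadjusted p under 0.05, beside 16.1, 11.8, 26.2, 14.8 and 3.59% of all genes. DESeq2 called 0, 0, 2, 1 and 1 of them, namely Mllt3 and Ctla2a against WT and Ctla2a in the other 2, beside 3.53, 1.11, 10.2, 2.77 and 0.451% of all genes. For T3 against T1 the called share was 0.0%, with 2 of the 10 genes and 13.1% of all genes under an unadjusted 0.05 and 0 called by DESeq2 (0.14% of all genes). In WT, E2-KO and G12D the libraries at T3 and T1 also differed in sex, so time and sex cannot be told apart there. The median log2 difference of the 10 genes was −0.13, −0.16, 0.03, 0.11 and 0.18 in the first 5 comparisons and 0.21 for T3 against T1, beside medians between −0.01 and 0.01 over all genes.

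**Figure D2:**
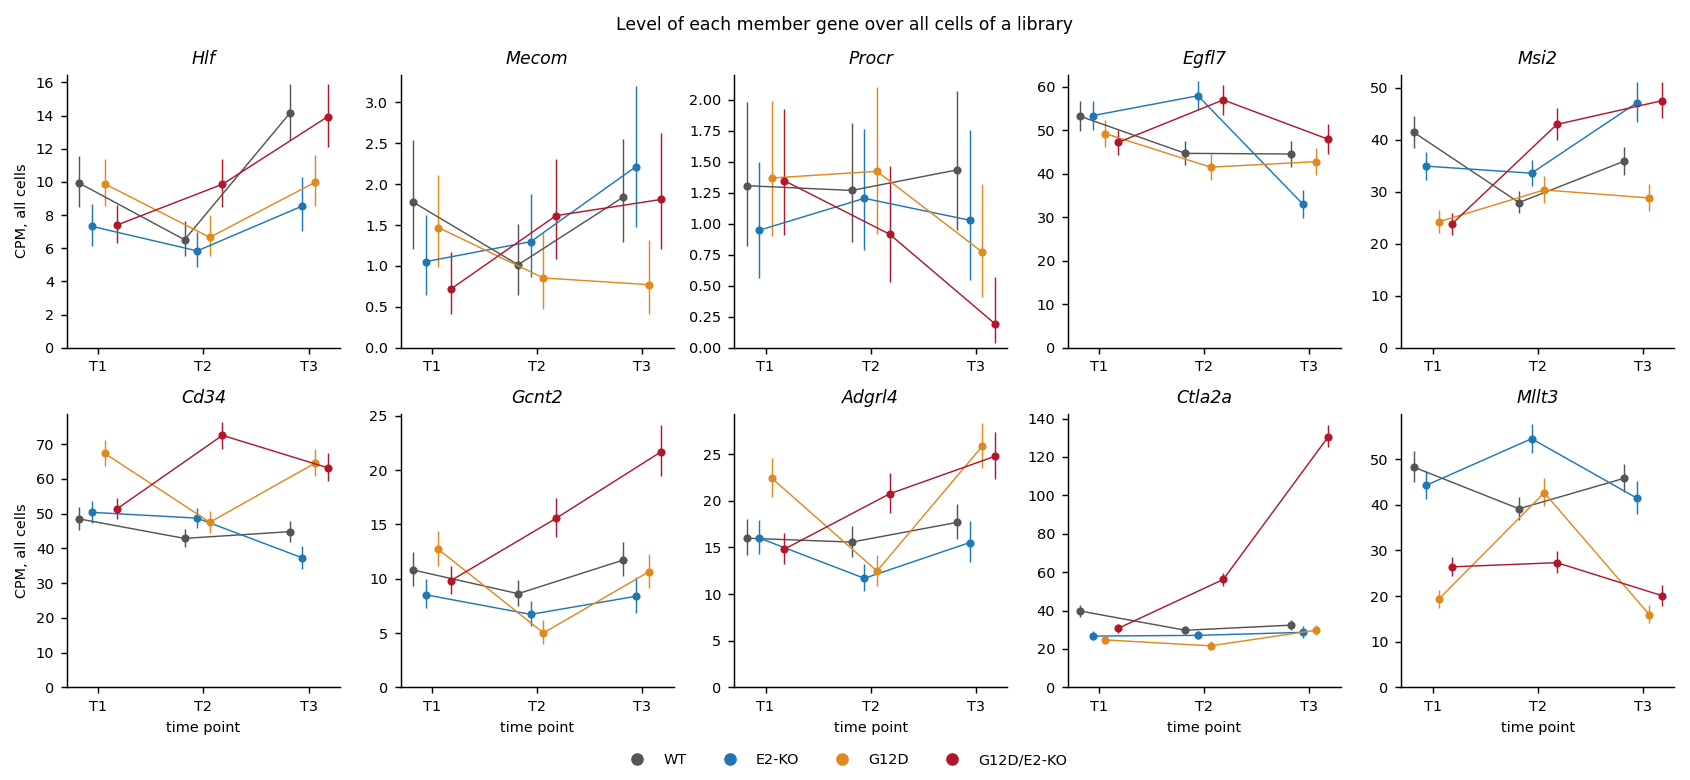
Level of each of the 10 genes over all cells in CPM (log axis), with 1 point per library, genotypes side by side, symbols for T1, T2 and T3, and bars at the mean of 3 libraries. Ctla2a reaches 131 CPM in G12D/E2-KO T3, and Mllt3 lies between 20.1 and 27.3 CPM in G12D/E2-KO against 39.1 to 48.2 CPM in WT.

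The next comparison asked whether cells that have switched on the primary granule genes still carry stem cell transcripts. Cells with at least 100 UMIs of Mpo, Elane, Prtn3 and Ctsg per 10000 UMIs were gated, which gave 321 to 910 cells per library. Mllt3 was the 1 gene of the set that passed the test in them, higher both when Ezh2 was lost from WT and when it was lost on the G12D background. Its level was 4.89, 3.72 and 3.54 CPM for WT against 7.24, 8.23 and 11.1 CPM for E2-KO. On the G12D background it was 3.20, 2.32 and 3.60 CPM with Ezh2 and 5.73, 6.31 and 8.23 CPM without it. The E2-KO and G12D/E2-KO libraries were all above the WT and G12D libraries without overlap. The log2 difference was 1.14 for E2-KO against WT (SE 0.27, adjusted p = 0.0269 by edgeR) and 1.04 for G12D/E2-KO against G12D (SE 0.26, adjusted p = 0.0260). These comparisons have no library in common, but both came from 1 fit over all libraries, so their p-values are not independent.

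The Mllt3 counts behind these values were small, 12, 23 and 12 UMIs for WT, 44, 53 and 23 for E2-KO, 20, 11 and 21 for G12D, and 37, 37 and 40 for G12D/E2-KO. The difference of G12D/E2-KO from WT was 0.73 (SE 0.27, adjusted p = 0.133). Both calls were lost with the stricter gate of 200 (adjusted p = 0.163 and 0.267), with the tables as deposited (0.0555 and 0.189), with DESeq2 (0.0995 and 0.10) and with stem marker-bearing cells left out (0.190 and 0.149). The tables as deposited hold the same cells in G12D T1 and G12D/E2-KO T1, so there the second comparison sets shared cells against themselves in part. The E2-KO call was also lost without WT T2, WT T3, E2-KO T2 or E2-KO T3 (adjusted p from 0.0829 to 0.180), and the G12D/E2-KO call without any 1 of the G12D libraries or G12D/E2-KO T2 (0.0718 to 0.156). In all of these runs the Mllt3 difference kept its direction, between 0.79 and 1.16 on the log2 scale. Haemoglobin UMIs (Hba-a1, Hba-a2, Hbb-bt and Hbb-bs, made by erythroid cells) stood at 1418, 1708 and 3494 CPM in the gated E2-KO cells, 2003 ± 245 for WT, 778 ± 185 for G12D and 934 ± 254 for G12D/E2-KO. The early erythroid markers Car1, Car2, Klf1 and Blvrb summed to 111 ± 15.5 CPM for WT, 103 ± 13.4 for E2-KO, 85.6 ± 22.5 for G12D and 61.1 ± 2.15 for G12D/E2-KO. The highest haemoglobin and the highest Mllt3 value were both in E2-KO T3, and the part of erythroid RNA in the Mllt3 difference was not tested.

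Outside this gate Mllt3 averaged 3.02 CPM for WT, 3.63 for E2-KO, 1.89 for G12D and 3.53 for G12D/E2-KO in late granule-high cells, which no longer make primary granules. In haemoglobin-high cells the averages were 96.1, 106, 86.0 and 98.2 CPM in that order, in monocytic cells 3.27, 8.74, 2.33 and 4.59, in stem marker-positive cells 20.2, 24.5, 14.0 and 22.6, and in the remaining lineage-low cells 23.7, 20.4, 8.87 and 18.4. In these 5 groups the average was higher without Ezh2 on both backgrounds, except in the remaining lineage-low cells of E2-KO against WT, and in early erythroid cells it was lower on both. In stem marker-positive cells the log2 difference was 0.34 for E2-KO against WT (SE 0.30, adjusted p = 0.736) and 0.71 for G12D/E2-KO against G12D (SE 0.30, adjusted p = 0.382). Whether the difference in granule cells was larger than in the other groups was not tested. Within the gate the difference was present at both ends of the granule score. Cells with a score of 100 to 200 held 4.30 ± 0.945 CPM for WT, 9.44 ± 1.84 for E2-KO, 3.21 ± 1.16 for G12D and 7.37 ± 1.22 for G12D/E2-KO, and cells above 200 held 3.80 ± 0.561, 8.17 ± 1.56, 2.58 ± 0.239 and 5.36 ± 0.512 CPM.

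Gcnt2 in primary granule-high cells stood at 4.89, 3.55 and 5.61 CPM for WT, 4.77, 3.72 and 2.89 for E2-KO, 3.52, 1.27 and 2.40 for G12D, and 2.94, 3.92 and 12.8 for G12D/E2-KO. The T3 library of G12D/E2-KO stood above the other 11, and the groups overlapped otherwise. Against G12D the log2 difference was 1.20 (SE 0.41, adjusted p = 0.106). With every cell that held a UMI of the 5 stem markers left out of the gate, it was 2.05 (adjusted p = 0.00770), from 1.79, 1.01 and 1.74 CPM in G12D and 3.89, 4.06 and 14.2 CPM in G12D/E2-KO, which did not overlap. Cd27 is 1 of these markers and was itself lower in the granule cells of G12D/E2-KO. Leaving out cells by marker UMIs can therefore remove unequal parts of the genotypes, and this was not tested. Without the T1 library of G12D/E2-KO the Gcnt2 difference was 1.72 (adjusted p = 0.0131), and that of Ctla2a from G12D was 1.19 (adjusted p = 0.0351) in place of 0.76 (adjusted p = 0.233). Without the T3 library of G12D/E2-KO they were 0.50 (adjusted p = 0.522) for Gcnt2 and 0.31 (adjusted p = 0.677) for Ctla2a. In late granule-high cells Gcnt2 was also highest in G12D/E2-KO T3, at 22.4 CPM against 2.98 to 12.4 CPM in the other 11. Its WT average was 7.11 ± 2.51 CPM there and 4.69 ± 1.04 CPM in primary granule-high cells. WT T1 went the other way, with 4.45 CPM in late and 4.89 CPM in primary granule-high cells. Whether Gcnt2 UMIs in primary granule-high cells were kept from the stem state was not tested.

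Hlf (10.5 CPM) and Ctla2a (14.2 CPM) were also highest in the primary granule-high cells of G12D/E2-KO T3, and lay between 3.67 and 7.68 and between 4.04 and 11.8 in the other libraries. The 4 megakaryocytic markers summed to 35.6 CPM in the gated cells of that library and to 7.61 to 18.9 CPM in the others, and their part in these values was not tested. Adgrl4, the adhesion receptor, stood at 26.9, 16.5 and 21.8 CPM in WT and 13.2, 11.5 and 11.6 in E2-KO, without overlap. That difference was −0.74 on the log2 scale (SE 0.21, adjusted p = 0.0760), and it passed without G12D/E2-KO T1 (adjusted p = 0.0330) or G12D/E2-KO T3 (0.0469). In G12D/E2-KO it stood at 9.59, 13.8 and 20.0 CPM, overlapping both WT and G12D (17.8, 17.5 and 21.8).

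Cd34 averaged 67.8, 69.2, 66.2 and 56.8 CPM in the gated cells of WT, E2-KO and G12D and of the double mutant. Egfl7 ran from 15.4 to 27.2 CPM and Msi2 from 10.6 to 21.0 over the 12 libraries. Mecom (0 to 1.93 CPM) and Procr (0 to 1.93 CPM) were too low for the count filter, so 8 of the 10 genes were tested. The 10 genes together averaged 150, 146, 132 and 140 CPM.

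Of the 8 genes tested in primary granule-high cells, 1 (Mllt3) passed for E2-KO against WT, where 2.12% of all 10655 genes were called, and 1 (Mllt3) for G12D/E2-KO against G12D, where 4.54% were called. By edgeR 0 passed for G12D against WT (0.197% of all genes), G12D/E2-KO against WT (3.95%) and the interaction (0.0845%). An unadjusted p under 0.05 was reached by 2 of the 8 genes for E2-KO against WT (16.4% of all genes), 1 for G12D against WT (4.66%), 2 for G12D/E2-KO against WT (20.1%), 4 for G12D/E2-KO against G12D (20.0%) and 1 for the interaction (3.29%). DESeq2 called 0 in all 5, beside 1.72, 0.338, 2.81, 2.98 and 0.188% of all genes in the same order. The median log2 differences of the 8 genes were 0.02, −0.28, 0.21, 0.39 and 0.26 in the order E2-KO against WT, G12D against WT, G12D/E2-KO against WT, G12D/E2-KO against G12D and the interaction.

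**Figure D3:**
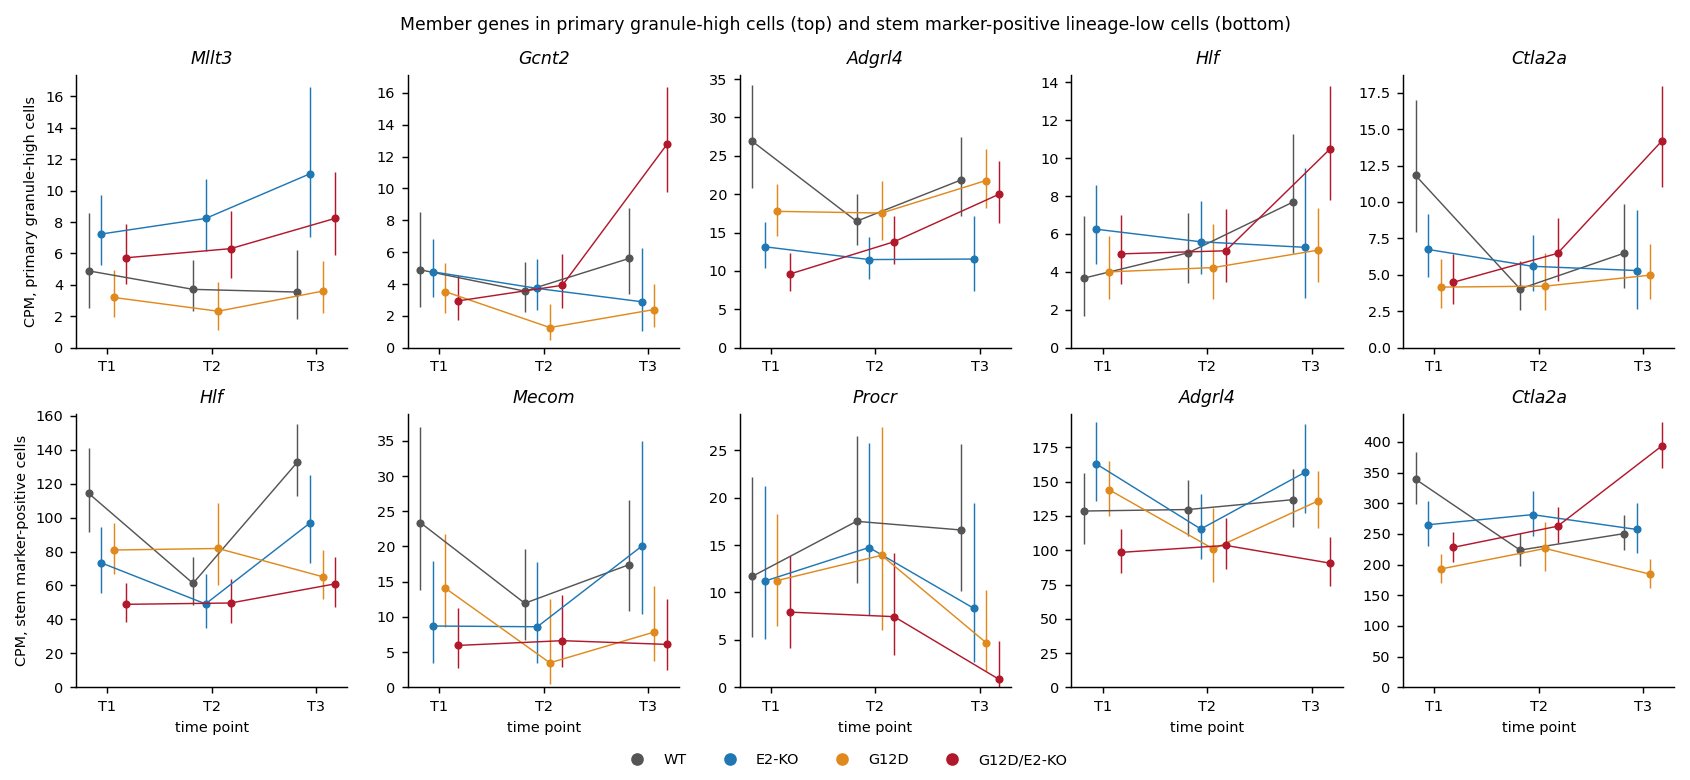
Level in CPM of the genes named in the text in primary granule-high cells and in stem marker-positive cells, with 1 point per library and bars at the mean of 3 libraries. In granule cells Mllt3 lies between 5.73 and 11.1 CPM in the 6 libraries without Ezh2 and between 2.32 and 4.89 CPM in the 6 with it, and in stem marker-positive cells Hlf, Mecom and Procr are lower in G12D/E2-KO than in WT in every library.

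The fall of the set along granulocytic commitment was followed by sorting cells assigned to no other lineage gate by granule score. The primary granule gate came first, so bins from 100 upward hold all primary granule-high cells, also those past the limit of a later gate. Bins under 100 hold only cells that passed no other lineage gate, so the bins below and above 100 were filtered differently. In WT the 10 genes together stood at 1075 ± 77.4 CPM in cells scoring under 10, 1280.1 ± 50.3 from 10 to 30, 596 ± 68.0 from 30 to 100, 186 ± 17.8 from 100 to 200 and 113 ± 28.8 above 200. In G12D/E2-KO the sums were 854 ± 217, 1033 ± 17.3, 416 ± 19.9, 162 ± 10.3 and 97.0 ± 12.8. Hlf fell earlier than Cd34, with WT means of 97.4, 16.3 and 4.35 CPM in the bins 10 to 30, 30 to 100 and 100 to 200, beside 384, 252 and 99.1 CPM for Cd34.

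**Figure D4:**
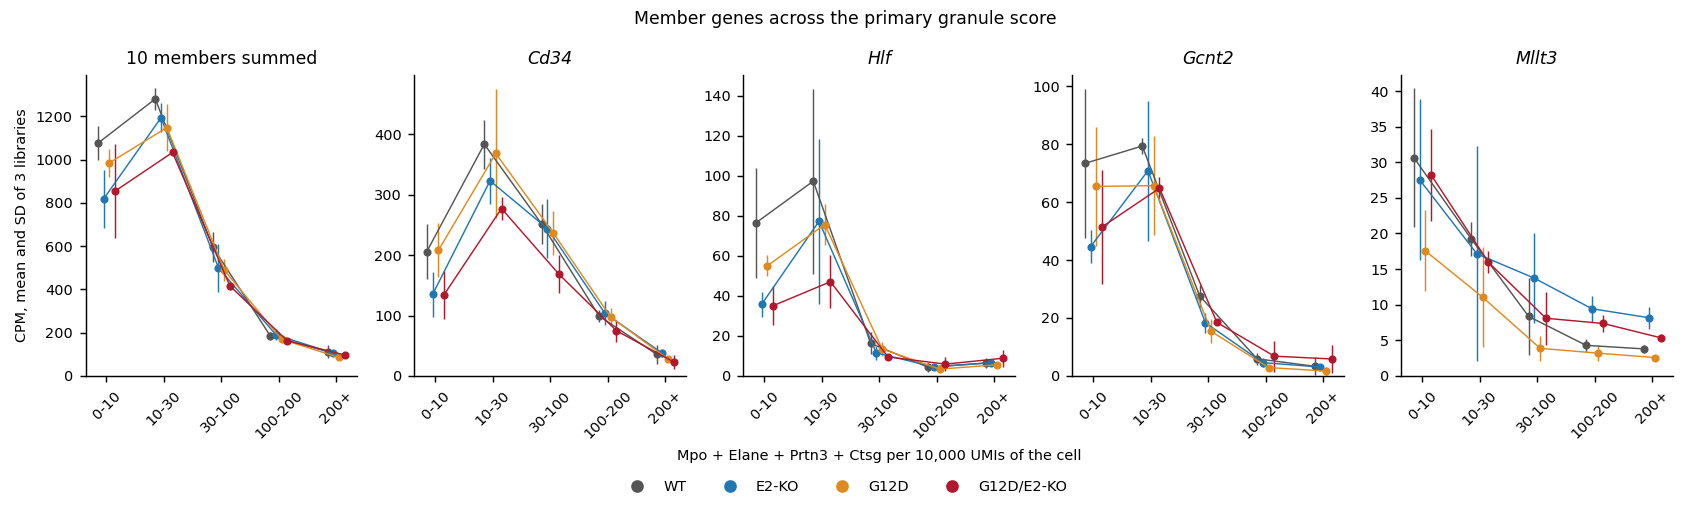
Summed level of the 10 genes and levels of single genes (CPM, log axis) in cells assigned to no other lineage gate, by granule score in UMIs of Mpo, Elane, Prtn3 and Ctsg per 10000 UMIs. Bins from 100 upward hold all primary granule-high cells. Lines join genotype means of 3 libraries, and error bars are SD. The sum falls from 1280.1 to 113 CPM in WT and from 1033 to 97.0 CPM in G12D/E2-KO between the bins 10 to 30 and above 200, while the Mllt3 lines of E2-KO and G12D/E2-KO lie above those of WT and G12D in both bins above 100.

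Counted by cell, 23.1 ± 3.47% of primary granule-high cells for WT held a UMI of any of the 10 genes after thinning to 2000 UMIs, and 21.4 ± 1.22% for E2-KO, 19.9 ± 1.48% for G12D and 21.8 ± 2.91% for G12D/E2-KO. The single G12D/E2-KO libraries had 19.7, 20.5 and 25.1% and the WT libraries 24.4, 19.1 and 25.7%, which overlap. The difference was −1.25 percentage points from WT (exact two-sided permutation test, p = 0.90, where the smallest possible is 0.10) and 0.333 points from the other 9 libraries (permutation p = 0.845). Unthinned, the shares were 61.6 ± 5.28, 53.1 ± 10.8, 55.3 ± 3.55 and 55.4 ± 5.99%. Of single genes Cd34 was detected most often in these cells after thinning, at 10.9 ± 2.26, 9.76 ± 0.652, 10.1 ± 0.293 and 8.72 ± 1.28% in the same order. In G12D/E2-KO T3 Cd34 was at its lowest of all libraries (7.28%). Hlf (2.00%), Msi2 (3.84%), Gcnt2 (2.56%) and Ctla2a (2.74%) were at their highest there, so the joint share can hide opposite moves of single genes. In cells expected to lack most of the set the thinned shares were 6.54 ± 1.04, 7.53 ± 0.697, 4.67 ± 0.697 and 9.04 ± 2.79% for late granule-high and 18.6 ± 4.06, 20.6 ± 3.72, 17.4 ± 1.60 and 19.9 ± 2.84% for haemoglobin-high cells, the latter mainly from Mllt3. Cells under 2000 UMIs were left out, at most 17 per library in primary granule-high, 119 in late granule-high and 59 in haemoglobin-high cells.

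In stem marker-positive cells the comparison asked whether the set changed where it is normally used. The gate rests on genes that themselves differed between genotypes, since Hoxa9 was called higher in G12D/E2-KO than in WT over all cells (log2 0.65) and Cd27 was called lower in granule cells. The group held 7.32 ± 0.581% of the cells for WT, 6.01 ± 0.326% for E2-KO, 6.91 ± 2.01% for G12D and 8.51 ± 1.11% for G12D/E2-KO, and the remaining lineage-low group 5.27 ± 1.11, 7.99 ± 1.31, 6.93 ± 1.69 and 16.8 ± 4.82%. The part of this shift in the values below was not tested. Hlf, Mecom and Procr had their lowest means in G12D/E2-KO, and none of the 3 differences passed the test. Hlf stood at 114, 61.3 and 133 CPM for WT, 73.4, 49.1 and 96.9 for E2-KO, 80.9, 81.8 and 65.2 for G12D, and 48.9, 49.7 and 61.0 for G12D/E2-KO. The G12D/E2-KO values lay just below the lowest WT value, and E2-KO overlapped both. The log2 difference from WT was −0.86 (SE 0.21, adjusted p = 0.0512 by edgeR) and that from G12D −0.55 (SE 0.22, adjusted p = 0.351). The difference from WT passed without WT T2, E2-KO T3, G12D T2, G12D T3 or G12D/E2-KO T2 (adjusted p from 0.0195 to 0.0482) and did not without any other single library (0.0557 to 0.481).

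Mecom stood at 23.4, 11.9 and 17.4 CPM for WT, 8.71, 8.60 and 20.0 for E2-KO, 14.1, 3.48 and 7.85 for G12D, and 5.95, 6.63 and 6.10 for G12D/E2-KO. Procr stood at 11.7, 17.5 and 16.6 CPM for WT, 11.2, 14.7 and 8.35 for E2-KO, 11.3, 13.9 and 4.71 for G12D, and 7.93, 7.45 and 0.871 for G12D/E2-KO. For both genes G12D/E2-KO and WT did not overlap, and the single mutants lay across that gap. The log2 differences from WT were −1.41 for Mecom (SE 0.40, adjusted p = 0.0922) and −1.45 for Procr (SE 0.42, adjusted p = 0.108). The lone Procr UMI behind the T3 value of G12D/E2-KO allows 0.0220 to 4.85 CPM (exact Poisson interval of 95%, counting error only).

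Ctla2a in stem marker-positive cells stood at 339, 224 and 251 CPM for WT, 265, 281 and 257 for E2-KO, 193, 226 and 185 for G12D, and 228, 263 and 394 for G12D/E2-KO, above G12D by 0.49 on the log2 scale (SE 0.17, adjusted p = 0.272). Megakaryocytic markers summed to 321 CPM in the stem marker-positive cells of G12D/E2-KO T3 and to 26.7 to 121 CPM in the others. Cd34 (199 to 413 CPM), Adgrl4 (90.6 to 163), Msi2 (85.3 to 169), Egfl7 (95.2 to 244), Gcnt2 (47.0 to 109) and Mllt3 (12.0 to 30.1) overlapped between WT and G12D/E2-KO with 2 exceptions. In all, 5 of the 10 genes did not overlap between these 2 groups, each lower in G12D/E2-KO, beside 17.3% of the 8866 genes tested that did not overlap in either direction. Adgrl4 stood at 129, 130 and 137 CPM in WT and 98.5, 104 and 90.6 in G12D/E2-KO (log2 −0.38, SE 0.18, adjusted p = 0.365), and Cd34 at 413, 296 and 279 CPM and 247, 248 and 216 CPM (log2 −0.41, SE 0.15, adjusted p = 0.249). The sum averaged 1290, 1134, 1096 and 1086 CPM, and the endothelial markers 68.6, 57.7, 55.7 and 52.4 CPM, across the genotypes WT, E2-KO and G12D and the double mutant G12D/E2-KO.

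By edgeR 0 of the 10 genes passed in any comparison of stem marker-positive cells. The called share of 8866 genes was 0.282% for E2-KO against WT, 0.192% for G12D against WT, 0.654% for G12D/E2-KO against WT, 0.259% for G12D/E2-KO against G12D and 0.0226% for the interaction. In that order 1, 1, 5, 5 and 1 of the 10 genes had an unadjusted p under 0.05, beside 10.5, 5.8, 12.9, 10.4 and 3.65% of all genes, and DESeq2 called 0 in each (0.226, 0.135, 0.293, 0.147 and 0.0226% of all genes). Of the 5 under that limit against WT, which were Hlf, Mecom, Procr, Cd34 and Adgrl4, all were lower in G12D/E2-KO. The median log2 difference of the 10 genes there was −0.31, beside 0.01 over all genes. In simulated data of this cell group, 51.5% of genes changed by 2-fold were recovered, so a change of that size could be missed. The simulation gave every gene the same spread and no time effect, and the share is an average over genes of all levels.

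The study set Gcnt2 beside Mpo, the myeloperoxidase of primary granules, and reported a higher share of cells with both in G12D/E2-KO than in WT. Both genes were therefore counted in the same cells. With cells thinned to 2000 UMIs, 0.893, 0.580 and 0.702% of WT cells held UMIs of both, 0.747, 0.515 and 0.506% of E2-KO, 0.886, 0.254 and 0.714% of G12D and 0.671, 1.19 and 1.81% of G12D/E2-KO cells. The T2 and T3 libraries of G12D/E2-KO were above all others, and the T1 library lay within the WT range. The mean of G12D/E2-KO was 0.501 points above WT (exact two-sided permutation p = 0.30) and 0.582 points above the other 9 libraries (exact p = 0.0545), not past 0.05. The difference from the other 9 passed at 3000 UMIs and without G12D/E2-KO T1, and leaving out 1 library moved it in both directions, as given below. Were the 2 genes found independently of each other, the share would have been 0.839, 1.61 and 2.48% in G12D/E2-KO. The observed over expected ratio was 0.959 ± 0.159 for WT, 0.825 ± 0.0682 for E2-KO, 0.662 ± 0.105 for G12D and 0.758 ± 0.0361 for G12D/E2-KO, below 1 in 11 of the 12 libraries. This direction depended on the depth, since 9 of the 12 were below 1 at 3000 UMIs and 3 without thinning.

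Unthinned, the shares were 3.36, 3.23 and 3.64% for WT. Those for G12D/E2-KO were 3.45, 3.82 and 6.42%, beside 3.22, 3.71 and 6.88% expected. The T3 library of G12D/E2-KO lay above all others, and its T2 library lay below E2-KO T1 (3.97%) and G12D T1 (4.32%). In number, 258 WT, 211 E2-KO, 233 G12D and 417 G12D/E2-KO cells held both. In WT 38.7 ± 1.77% of them were stem marker-positive and 19.5 ± 5.99% primary granule-high. In G12D/E2-KO 27.7 ± 11.8% were stem marker-positive, 31.2 ± 2.52% remaining lineage-low and 23.0 ± 11.7% primary granule-high. Thinning to 2000 UMIs left out up to 367 cells of a library (G12D/E2-KO T2). At 3000 UMIs 990 cells of G12D/E2-KO T2, 876 of E2-KO T3 and 535 of G12D/E2-KO T3 were left out, beside 152 to 279 in the WT libraries.

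**Figure D5:**
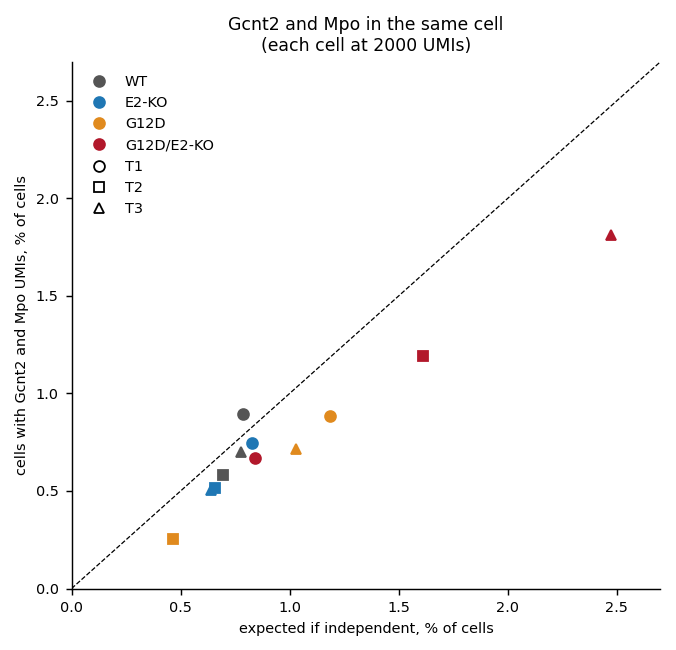
Share of all cells with UMIs of both Gcnt2 and Mpo after thinning to 2000 UMIs, per library, beside the share expected if both were found independently. G12D/E2-KO reaches 1.19% at T2 and 1.81% at T3, where 1.61% and 2.48% would be expected at this depth, while without thinning 3.82% was observed at T2 and 3.71% expected.

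The 40 other stem and progenitor genes, listed with earlier results of these data known, were counted beside the set (37 tested over all cells). Over all cells, G12D/E2-KO against WT had 2 of them higher, Ikzf2 (log2 0.70, SE 0.18, adjusted p = 0.0455) and Hoxa9 (log2 0.65, SE 0.17, adjusted p = 0.0496), both transcription factors, and 1 lower, the erythroid and megakaryocytic repressor Gfi1b (log2 −1.20, SE 0.23, adjusted p = 0.0208), beside 5.69% of all genes called. Against G12D, where 1.36% of all genes were called, 3 were higher, among them von Willebrand factor Vwf (log2 1.29, adjusted p = 0.0123), which megakaryocytes also make. For the interaction 1 was called higher, beside 0.0934% of all genes. The median log2 difference of the 37 was 0.31 against WT and 0.27 against G12D, where 16 and 13 of them had an unadjusted p under 0.05, beside 26.2 and 14.8% of all genes. For the interaction 7 did, beside 3.59%. By edgeR 0 of the 37 passed for E2-KO against WT, G12D against WT and T3 against T1, with 6, 10 and 9 at an unadjusted p under 0.05, beside 16.1, 11.8 and 13.1% of all genes.

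In primary granule-high cells 30 of the 40 were tested, and 2 passed for E2-KO against WT, 3 for G12D/E2-KO against G12D and 3 for G12D/E2-KO against WT, all lower, beside 2.12, 4.54 and 3.95% of all genes called. Cd27, a receptor of the tumor necrosis factor family, fell by 0.91 on the log2 scale in E2-KO against WT, with Sox4, a transcription factor of progenitors, at −0.82. Against G12D, G12D/E2-KO had Cd27 at −1.68, Sox4 at −1.10 and the adhesion receptor Cd48 at −0.75, and against WT at −1.62, −1.23 and −0.72, all past the threshold. The list of 40 includes Hoxa9, Meis1, Angpt1, Ifitm1 and Cd27, which define the stem marker-positive gate. Their levels in that group therefore depend in part on the gating. In stem marker-positive cells 32 were tested, and 1 passed, Pdzk1ip1, which fell by 1.32 in G12D/E2-KO against WT (adjusted p = 0.00720). It stood at 41.6, 39.0 and 57.2 CPM in WT and 13.2, 15.7 and 24.4 in G12D/E2-KO, without overlap.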

How the data were processed

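Bone marrow cells enriched for c-Kit were profiled one by one with 10x Genomics 3′ chemistry, which gave 12 tables. Per the labels, the authors aligned reads to mm10 with Cell Ranger, and the deposited values are raw UMI counts per gene and cell. The study's methods state that the authors had removed cells above 10% mitochondrial UMIs and doublets called by Scrublet, and no further doublet caller was run. The number of mice behind a library is not given in the sources used here. Repeated symbols were told apart by a suffix, which 121 gene names carry. Library labels were taken from the submitters' sample labels, and the time points written in the tables' cell names run 1 step lower.

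The 10 genes, the gene lists and the tests were chosen with earlier results of these data known. Cells of different tables were compared by cosine similarity over 8000 genes after the 300 most abundant were left out, and pairs above 0.9 were taken as 1 cell. The highest similarity in the 65 library pairs with no match was 0.8525, and the lowest among matched cells was 0.9142. Of 35597 cells, 32701 remained. Replicate libraries of a genotype differed far beyond sampling noise.

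Cells were assigned to the first gate passed, in UMIs per 10000 UMIs: primary granule (100), late granule (200; Ngp, Camp, Ltf, Lcn2), haemoglobin (200), megakaryocytic (20), B lymphoid (20; Cd79a, Vpreb1, Vpreb3, Igll1, Ebf1), basophil and mast (10; Mcpt8, Prss34, Ms4a2, Gzmb), macrophage (15; C1qa, C1qb, C1qc, Vcam1), dendritic (5; Siglech, Cd209a, Ccr9, Klk1), monocytic (10; F13a1, Ms4a6c, Ccr2, Ly86), early erythroid (20) and stem marker-positive (5). Limits other than that of the primary granule gate were set after the score distributions were seen, and no gate uses a gene of the set. Compartments with at least 20 cells in every library, 7 in all, entered the pattern comparison.

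Counts were summed per library and cell group and tested with edgeR 4.0.16 in R 4.3.3 (limma 3.58.1; TMM, filterByExpr by genotype, robust glmQLFit, glmQLFTest). Genotype and time point were factors, with 6 residual degrees of freedom. Two-sided p-values received the Benjamini-Hochberg adjustment over all genes of a comparison, with a threshold of 0.05. They measure the spread between the libraries of a genotype after shifts shared by all genotypes at a time point are removed. The fit draws the spread of each gene toward that of the other genes, so a p-value does not rest on that gene's own libraries alone. No 2 libraries repeat a genotype and time. Shares were thinned by their exact expectation and compared by exact permutation over libraries. Intervals and shares cover counting error only, and UMIs in cells that do not make a gene can come from free RNA. In simulated counts 70.0%, 79.5% and 51.5% of genes changed by 2-fold were recovered in G12D/E2-KO against WT over all cells, in primary granule-high cells and in stem marker-positive cells (200 of 12848, 10655 and 8866 genes changed). False calls made up 6.67, 5.92 and 3.74% of the calls in that order. Every simulated gene had the same spread and no time effect, unlike the data. Alternatives were other size factors, no count filter, DESeq2 1.42.0, no time term, the tables as deposited, other gates and depths, and each library left out in turn. Python 3.11.15 with numpy 2.4.6, scipy 1.17.1, pandas 2.3.3 and matplotlib 3.10.9 was used. All 10 genes were named by rule, the 40 other stem genes only where they passed the test (2 that passed are not reported here), and the 5 genes nearest in pattern by correlation.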

Additional observations from a re-analysis of the deposited data

Results flagged for a closer look

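Ctla2a drew attention because its libraries moved in opposite directions on Ezh2 loss in the absence and presence of NRas G12D. Over all cells it was lower in E2-KO than in WT at each of the 3 time points (log2 −0.56, −0.13 and −0.17 at T1, T2 and T3) and higher in G12D/E2-KO than in G12D at each (0.30, 1.34 and 2.10). These signs were compared for every gene of the set over all cells, in primary granule-high cells and in stem marker-positive cells. Only Ctla2a over all cells showed opposite directions at all 3 time points. The share of all genes with such a pattern was not counted. Whether a single case exceeds what random signs would give was not tested. The Ctla2a interaction over all cells was 1.60 on the log2 scale by edgeR (SE 0.42, unadjusted p = 0.00352), and the adjusted p of 0.558 did not pass. DESeq2 called it (1.60, adjusted p = 0.0156), as did the fit without G12D/E2-KO T1 (1.98, adjusted p = 0.0154), while without G12D/E2-KO T3 it was 1.13 (adjusted p = 0.248), and over all alternatives the adjusted p ran from 0.0154 to 1.0. The summed megakaryocytic markers over all cells were 494 ± 344 CPM (SD, n = 3) in G12D/E2-KO, 147 ± 33.5 in G12D, 167 ± 19.2 in E2-KO and 326 ± 39.5 in WT. Their part in this pattern was not tested.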

How the results depend on the processing

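Where 0 of the 10 genes were reported past the threshold, the count stayed at 0 in most runs. In primary granule-high cells Mllt3 passed in 12 of 20 alternatives, both for E2-KO against WT and for G12D/E2-KO against G12D. With stem marker-bearing cells left out, the 1 gene past the threshold for G12D/E2-KO against G12D was Gcnt2 in place of Mllt3. Over all cells (0 in each comparison), DESeq2 gave 2 for G12D/E2-KO against WT, 1 against G12D and 1 for the interaction (10.2, 2.77 and 0.451% of all genes), and leaving out 1 library gave 0 to 1 in these 3 and in G12D against WT. In primary granule-high cells, E2-KO against WT (1) gave 2 without the count filter (3.22% of all genes) and 0 with DESeq2, the deposited tables, the gate of 200 or stem marker-bearing cells left out (1.01 to 1.72%), and 0 to 2 with 1 library left out. G12D/E2-KO against G12D (1) gave 2 without the filter (5.38%), 0 with DESeq2, the deposited tables or the gate of 200 (0.357 to 2.98%), and 0 to 3 with 1 library left out (4.0% where 3), and G12D/E2-KO against WT (0) gave 1 without the filter (4.79%) or with the gate of 50 (3.82%). In stem marker-positive cells, G12D/E2-KO against WT (0) gave 3 without the filter (Procr, Mecom and Hlf; 1.3% of all genes), 1 with Flt3 among the markers (0.589%), and 0 to 1 with 1 library left out. What caused these changes between runs was not tested.

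The G12D/E2-KO excess over the other 9 libraries in cells with both Gcnt2 and Mpo was 1.08 points at 3000 UMIs (exact p = 0.0455), and 0.288 to 0.860 with 1 library left out, where the highest was without G12D/E2-KO T1 (exact p = 0.0364). Against WT it was 0.207 to 0.779. The depth of 3000 UMIs left out cells unevenly, up to 990 in G12D/E2-KO T2 beside 152 to 279 in the WT libraries. For granule cells with any gene of the set, the difference from the other 9 turned to −1.28 points without thinning and lay between −1.33 and 1.37 with 1 library left out (−1.33 without the T3 library of G12D/E2-KO, −0.0276 without G12D T1), and that from WT ran from −3.21 to 0.0623 (without WT T3). None of these granule differences passed.

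Time points were the replicate block. Of 18 pairs of libraries with the same time, 11 deviated together with r over 0.1 over all cells, 13 in granule and 9 in stem marker-positive cells, so the time points do not pair the libraries throughout. Without the block no gene of the set changed its call, and Mllt3 in granule cells stayed past the threshold (adjusted p = 0.0474 and 0.0402), while calls over all genes in granule cells went from 226 to 122 for E2-KO against WT, from 421 to 232 for G12D/E2-KO against WT and from 484 to 265 against G12D.

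Calls over all genes also moved. Over all cells they ran from 66 to 458 for E2-KO against WT (204 reported), 4 to 142 for G12D (14), 91 to 1368 for G12D/E2-KO (731), 3 to 356 against G12D (175) and 0 to 58 for the interaction (12). In granule cells they ran from 84 to 558 (226), 5 to 171 (21), 105 to 831 (421), 38 to 934 (484) and 0 to 73 (9), and in stem marker-positive cells from 9 to 74 (25), 6 to 58 (17), 12 to 211 (58), 4 to 140 (23) and 0 to 12 (2). T3 against T1 went from 0 to 18 with DESeq2. The depth limits Mecom and Procr most, at 3 to 36 UMIs per library.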
